A study of Mus musculus with 24 samples.

Results

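The genes described here are 38 genes of DNA replication and S phase, the part of the cell cycle in which the genome is copied. Their probes are those outside controls whose gene name in the scanner output was one of the 38, and the brightest probe stood for each gene. The array carries 52 probes for them among 55681 probes outside controls. Of the 38, 37 passed the filter on dim probes and were tested together with all other genes, 23506 in all. The remaining gene, Ccne2, was well above background on 0 of 24 arrays and is described by its values alone.

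Expression was read from RNA that the labels place in the aorta of C57BL/6 mice, on 24 Agilent arrays with a single dye, and each of the 8 groups had 3 arrays. The 4 knockout groups were IL-17 knockouts that received the infusion with salt, the infusion on plain water, vehicle with salt, or vehicle on plain water, and the 4 wild-type groups received the same. Infusion means 3 days of angiotensin II together with β-aminopropionitrile (BAPN), which blocks the lysyl oxidases that join collagen and elastin fibres, and salt means drinking water with 1% NaCl before and during those days. All mice ate normal chow. The agent labels name BAPN only, the angiotensin II stands in the treatment protocol, the extraction protocol speaks of cells where the labels name the aorta, and neither age nor sex is given for any group. The labels do not say which IL-17 gene was deleted or how, and the probes of Il17a and Il17f were well above background on 0 of 24 arrays, wild-type arrays included, so they check nothing about the genotype. Replicates are stated to be biological, and whether 1 array is 1 mouse is not stated.

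Before a cell copies its DNA, Cdc6 and Cdt1 load the ring-shaped Mcm helicase onto origins, and the kinases Cdc7 with Dbf4 and cyclin E with its CDK partner set it to work. Primase and polymerase alpha lay down primers, polymerases epsilon and delta extend them on the sliding clamp Pcna, and Fen1 and Lig1 join the pieces of the lagging strand. Most of these genes are transcribed late in G1 under E2F transcription factors. In the adult aorta most smooth muscle and endothelial cells rest outside the cycle, and these genes are read as marks of cells that have entered it.

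The promoters of 33 of the 38 genes were read from RefSeq, build GRCm38.p6, as 250 bases before and 50 bases from the annotated start, 5′ to 3′ on the gene's own strand. E2F binding words are the sequence feature known to link these genes, and the choice of the 38 genes did not use it. Of the promoters 4 are shown, and these were picked by their E2F words and their changes on infusion. Capitals mark an E2F word, which is TTGGCGC or TTCCCGC or TTGCCGC or TTCGCGC, on either strand. Words on opposite strands can overlap, and a longer run of capitals is such an overlap. The promoter of Mcm5 (chr8:75109259-75109558, plus strand) is shown for a helicase gene that rose in all 4 infusion comparisons and holds 2 stretches of capitals, and that of Mcm6 (chr1:128359656-128359955, minus strand) for another with 3. That of Pola1 (chrX:93632106-93632405, minus strand) is shown for a gene with 4 words that passed the test in 0 infusion comparisons, and that of Tk1 (chr11:117825965-117826264, minus strand) for a gene with 0 words that was among those with the largest changes.
Mcm5: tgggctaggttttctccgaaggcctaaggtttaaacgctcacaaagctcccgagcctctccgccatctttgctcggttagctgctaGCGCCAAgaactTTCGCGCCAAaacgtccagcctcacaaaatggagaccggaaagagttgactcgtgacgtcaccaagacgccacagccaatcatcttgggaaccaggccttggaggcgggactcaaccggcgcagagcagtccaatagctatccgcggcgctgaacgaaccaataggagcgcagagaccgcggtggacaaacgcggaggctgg
Mcm6: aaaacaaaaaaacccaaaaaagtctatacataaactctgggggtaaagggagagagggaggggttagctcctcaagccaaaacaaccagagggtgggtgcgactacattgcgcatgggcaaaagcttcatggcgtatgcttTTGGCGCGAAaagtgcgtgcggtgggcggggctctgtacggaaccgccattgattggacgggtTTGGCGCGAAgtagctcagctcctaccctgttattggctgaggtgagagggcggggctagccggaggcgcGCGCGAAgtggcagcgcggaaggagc
Pola1: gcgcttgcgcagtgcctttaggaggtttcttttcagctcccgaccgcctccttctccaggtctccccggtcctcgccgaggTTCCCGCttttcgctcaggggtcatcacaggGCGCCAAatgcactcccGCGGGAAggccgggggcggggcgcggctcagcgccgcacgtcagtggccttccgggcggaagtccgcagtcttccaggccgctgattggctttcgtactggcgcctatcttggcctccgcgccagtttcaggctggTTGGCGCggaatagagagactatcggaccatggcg
Tk1: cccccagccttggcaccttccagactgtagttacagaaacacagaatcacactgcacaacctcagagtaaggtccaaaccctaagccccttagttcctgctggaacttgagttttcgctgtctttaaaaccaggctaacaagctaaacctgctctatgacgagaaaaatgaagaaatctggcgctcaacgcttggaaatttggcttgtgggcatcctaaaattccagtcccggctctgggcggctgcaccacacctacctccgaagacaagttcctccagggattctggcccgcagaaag

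A level below is the log2 of the array's processed signal minus the log2 of that array's 75th percentile, so that 0 is a signal at the 75th percentile and 1 unit is a doubling. Levels are compared between arrays for the same probe and never between probes. Changes are differences of group means on that scale with their standard error (SE) from 1 linear model over all 24 arrays, and a gene is called where its p, adjusted over all 23506 genes, is under 0.05. On each array 51.1% to 60.8% of spots gave a signal well above background, and 0 were saturated. The number of arrays limits the precision. The 75th percentile lay between 383 and 769 on knockout arrays and between 269 and 459 on wild-type arrays. Slides 1 and 2, scanned on 1 date, hold all knockout arrays, and slides 3 and 4, scanned on another, hold all wild-type arrays. Genotype, slide and scan date therefore cannot be told apart. All 12 smooth muscle markers, 12 endothelial markers and 12 fibroblast markers that were looked up were above background on at least 1 array.

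Of the 12 infused arrays 3 stood apart with low levels of the replication genes. Array 3 of the infused knockouts had a mean of 0.59 over the 37 genes, against 1.79 and 1.77 on the other arrays of its group, and was the lowest of the group for 35 of the 37. Array 3 of the infused wild types had a mean of 0.78, against 1.41 and 1.28, and was the lowest for 34. Array 2 of the salt-drinking infused wild types had a mean of 0.64, against 1.24 and 1.71, and was the lowest for 35. The means of all 12 infused arrays still lay above those of the 12 arrays without infusion, of which the highest was −0.19. Counts are therefore given with and without these 3 arrays, an alternative chosen after seeing the data.

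Infusion raised most of the replication genes in both genotypes, with and without salt. In knockouts on plain water 32 of 37 genes were higher and 0 lower than in controls (limma, adjusted p; over all genes tested 14.4% were higher and 16.2% lower), with a median log2 change of 1.49 against −0.04 over all genes. In salt-drinking knockouts 33 were higher and 0 lower (13.4% and 11.8% over all genes), with a median of 1.65 against −0.02. In wild types on plain water 30 were higher and 1 lower (12.2% and 13.7% over all genes), with a median of 1.57 against −0.02. In salt-drinking wild types 34 were higher and 0 lower (16.3% and 16.6% over all genes), with a median of 1.84 against −0.06. In these bulk samples, more cells of a dividing type and more RNA per cell cannot be told apart.

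The infused and uninfused arrays did not overlap for most of the genes. All 3 infused arrays lay above all 3 uninfused ones for 31 genes in knockouts on plain water (17.9% of all genes did so), 36 in salt-drinking knockouts (25.6%), 35 in wild types on plain water (16%) and 34 in salt-drinking wild types (25.4%). All 3 infused arrays lay below for 0 genes in knockouts on plain water (19.9% of all genes), 1 in salt-drinking knockouts (25.3%), 1 in wild types on plain water (19%) and 0 in salt-drinking wild types (29.2%), and that gene was Ung both times. Without the 3 low arrays the test called 35 genes higher in knockouts on plain water, 34 in salt-drinking knockouts, 33 in wild types on plain water and 36 in salt-drinking wild types. Salt and infusion together against vehicle on plain water gave 31 higher and 0 lower in the knockout (12.7% and 12.8% over all genes) and 31 higher and 1 lower in the wild type (13.2% and 15.5%), with medians of 1.55 and 1.66.

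**Figure D1:**
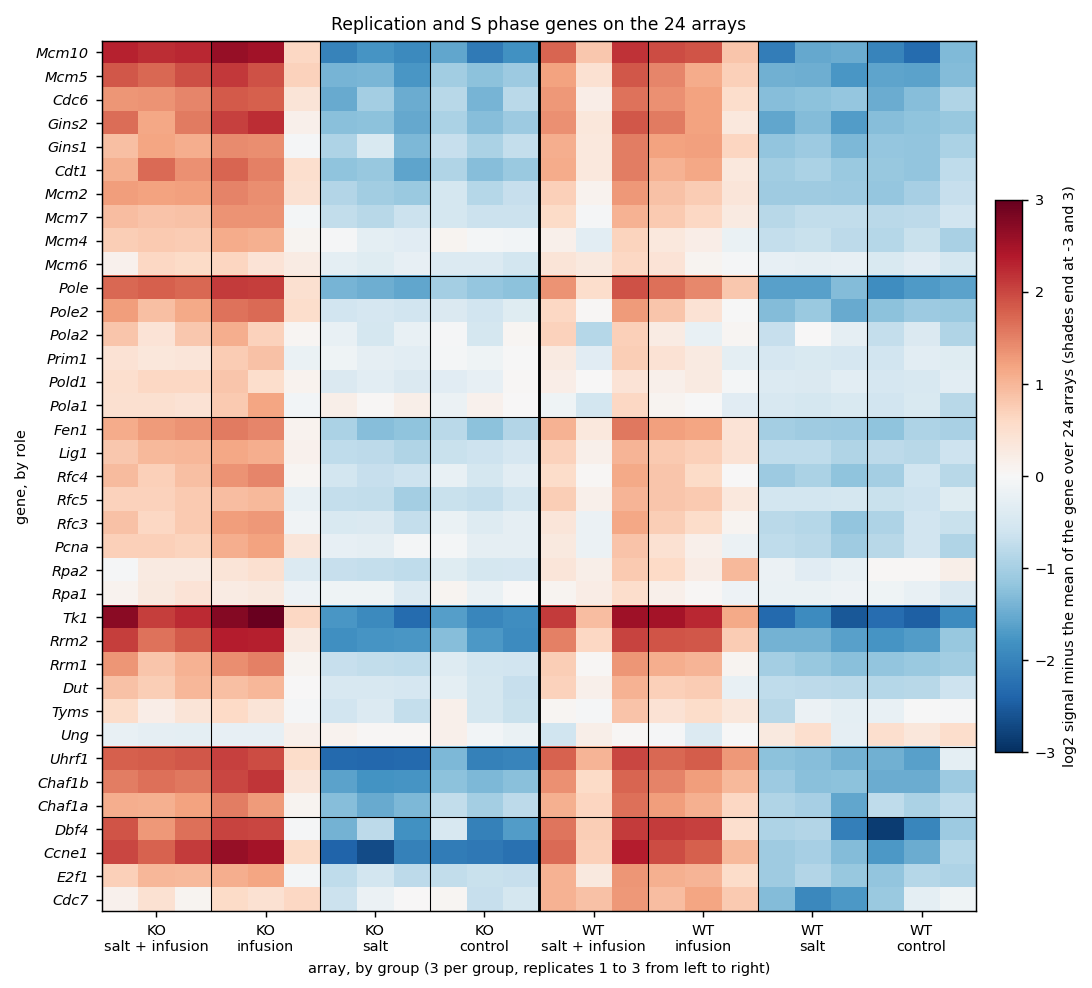
Levels of the 37 tested genes on each of the 24 arrays, each gene centred on its own mean and grouped by role down the page, with knockout arrays on the left and wild-type arrays on the right. The shades run over log2 differences and end at 3 on either side. The 12 infused arrays are the bright columns of each genotype, and the arrays with means of 0.59, 0.78 and 0.64 are the paler ones among them.

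Across the 4 infusion comparisons 29 genes were called higher each time by their brightest probe. Second probes of Ccne1 and Rfc5, given below, were not called in all of them. A further 3 were higher in 3 of them, namely Cdc7, Rpa2 and Tyms (thymidylate synthase), Rpa1 was higher in 2, and Pola2 and Prim1 in 1. Pola1 and Ung were higher in 0. In wild types on plain water the infused and control arrays lie on different slides, and of the 29 genes 6 were still called there with slide as a fixed block and 15 with slide as a random block. The adjusted p values given below for that comparison come from the fit without slide. The comparisons on plain water and with salt use different control arrays, but salt-drinking and plain-water groups of a genotype partly share slides.

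All 10 genes of helicase loading and the helicase were higher in each of the 4 infusion comparisons. Their log2 changes ran from 0.77 to 3.76 in knockouts on plain water, from 0.74 to 4.15 in salt-drinking knockouts, from 0.60 to 3.43 in wild types on plain water and from 0.68 to 3.27 in salt-drinking wild types. Mcm10, which joins the helicase as it is activated, had the largest change of the group in each of them. Mcm6 and Mcm4, subunits of the Mcm ring, had the smallest ones.

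Mcm5 is a subunit of the helicase ring, and its probe lies at chr8:77651350-77651410 in mm9. In the knockout Mcm5 stood at 2.75, 2.54 and 1.32 after infusion, against −0.40, −0.60 and −0.45 in controls. With salt, Mcm5 stood at 2.50, 2.36 and 2.57 in infused knockouts, against −0.75, −0.73 and −1.12 in uninfused ones. The groups did not overlap, and array 3 of the infused knockouts was the low one. In the wild type Mcm5 stood at 2.10, 1.75 and 1.36 after infusion, against −0.95, −0.96 and −0.67 in controls. With salt, the wild-type levels of Mcm5 were 1.84, 1.1 and 2.50 on infused arrays, against −0.80, −0.84 and −1.11 on uninfused ones. These groups were apart as well, with array 2 of the salt-drinking infused wild types lowest. The log2 change of Mcm5 was 2.69 ± 0.32 (SE) in knockouts on plain water, a 6.46-fold rise (limma, adjusted p = 4.06e-05), and 3.34 ± 0.32 with salt (adjusted p = 5e-06). In wild types it was 2.60 ± 0.32 on plain water, a 6.04-fold rise (adjusted p = 7.34e-05), and 2.73 ± 0.32 with salt (adjusted p = 2.88e-05).

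Mcm6 (probe at mm9 chr1:130228178-130228237), a ring subunit too, changed less. Its levels in knockouts were 5.86, 5.60 and 5.45 after infusion, against 4.79, 4.79 and 4.65 in controls. In salt-drinking knockouts they were 5.33, 5.84 and 5.77 after infusion, against 4.92, 4.84 and 4.96 without. Infused knockout arrays did not overlap with uninfused ones, and array 1 of the salt-drinking infused group was its lowest. The wild-type levels of Mcm6 were 5.61, 5.29 and 5.17 after infusion, against 4.74, 4.86 and 4.67 in controls. Salt-drinking wild types had Mcm6 at 5.58, 5.50 and 5.82 after infusion, against 4.96, 4.94 and 4.95 without. All 3 infused arrays lay above all 3 uninfused ones each time. The rise was 1.86-fold in knockouts on plain water (limma, adjusted p = 0.000294), 1.67-fold in salt-drinking knockouts (adjusted p = 0.00127), 1.51-fold in wild types on plain water (adjusted p = 0.00548) and 1.6-fold in salt-drinking wild types (adjusted p = 0.00186).

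Mcm10 changed by 3.76 ± 0.44 in knockouts on plain water, 4.15 with salt, 3.43 in wild types on plain water and 3.27 with salt. The loading factor Cdc6 changed by 2.35, 2.71, 2.26 and 2.26 in the same order, each ± 0.36. Its partner Cdt1 changed by 2.34, 2.69, 1.87 and 2.03, each ± 0.31. Of the GINS complex, which holds the active helicase together, Gins1 changed by 1.71, 1.96, 2.13 and 2.19 (each ± 0.33) and Gins2 by 2.58, 2.80, 2.23 and 2.71 (each ± 0.43). Of the ring subunits, Mcm2 changed by 1.81, 2.25, 1.63 and 1.78, and Mcm7 by 1.49, 1.64, 1.28 and 1.30.

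**Figure D2:**
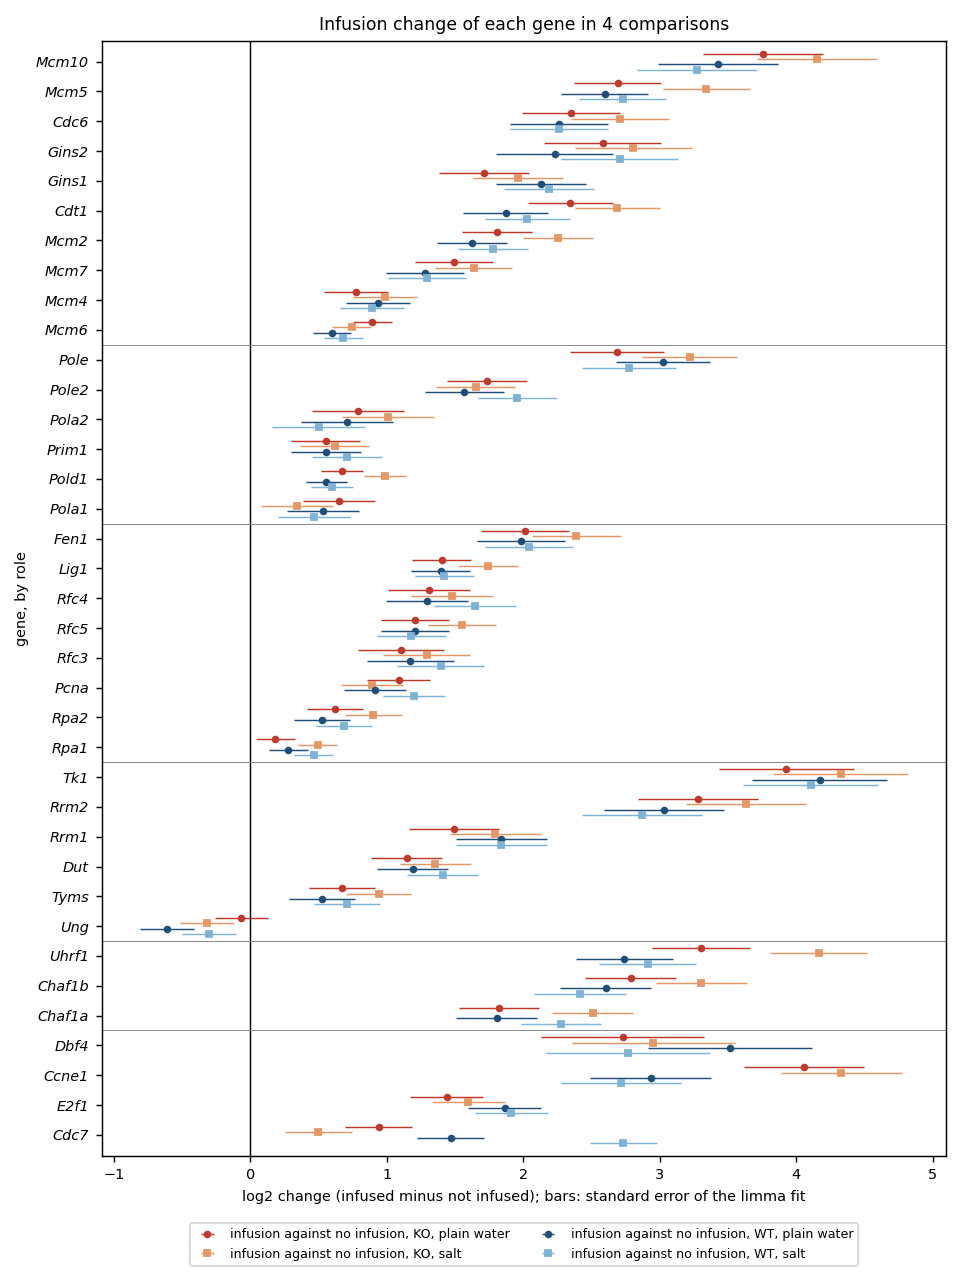
Log2 change on infusion of each of the 37 genes, by role down the page, in the 4 infusion comparisons, with bars for the standard error of the fit. Circles are plain water and squares are salt, and red and orange are knockout and the blues wild type. Tk1, Mcm10, Ccne1 and Uhrf1 lie above 4 in salt-drinking knockouts, Ung lies left of 0, and Cdc7 has its markers farthest apart.

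The polymerases and primase were split. Pole, Pole2 and Pold1 were higher in all 4 infusion comparisons, while the 3 subunits of the polymerase alpha and primase complex that were tested, Pola1, Pola2 and Prim1, together passed it in 2 of 12 tests. Pole, the catalytic subunit of polymerase epsilon, which copies the leading strand, had the largest changes. Pold1, the catalytic subunit of polymerase delta on the lagging strand, changed by 0.67 ± 0.15 in knockouts on plain water, 0.99 with salt, 0.56 in wild types on plain water and 0.60 with salt.

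In infused knockouts Pole stood at 2.10, 2.07 and 0.48, against −1.03, −1.16 and −1.23 in controls. Salt-drinking knockouts had Pole at 1.72, 1.79 and 1.73 after infusion, against −1.39, −1.46 and −1.56 without. The 3 infused arrays were well apart from the uninfused ones, array 3 on plain water least so. In infused wild types Pole stood at 1.65, 1.44 and 0.82, against −1.85, −1.70 and −1.61 in controls. Salt-drinking wild types had Pole at 1.35, 0.52 and 1.91 after infusion, against −1.62, −1.64 and −1.30 without. Again no infused array reached down to an uninfused one. The rise of Pole was 6.43-fold in knockouts on plain water (log2 2.69 ± 0.35, limma, adjusted p = 6.31e-05) and 8.13-fold in wild types on plain water (log2 3.02, adjusted p = 5.78e-05). With salt the log2 change of Pole was 3.22 in knockouts (adjusted p = 9.74e-06) and 2.78 in wild types (adjusted p = 4.08e-05). Its partner subunit Pole2 changed by 1.73 ± 0.29 and 1.65 in knockouts on plain water and with salt, and by 1.57 and 1.96 in wild types.

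Prim1, the catalytic subunit of primase, moved far less. Infused knockouts had Prim1 at 2.80, 2.93 and 1.83, against 1.98, 1.91 and 2.02 in controls. With salt, Prim1 was at 2.48, 2.39 and 2.40 in infused knockouts, against 1.91, 1.78 and 1.73 in uninfused ones. On plain water the knockout groups overlapped through array 3 of the infused group. Infused wild types had Prim1 at 2.48, 2.30 and 1.75, against 1.46, 1.73 and 1.67 in controls. With salt, Prim1 was at 2.30, 1.69 and 2.78 in infused wild types, against 1.53, 1.58 and 1.55 in uninfused ones. The wild-type groups were apart, by a narrow margin on plain water. The log2 change of Prim1 passed the test in salt-drinking wild types (0.71 ± 0.26, limma, adjusted p = 0.0404). It was 0.55 in knockouts on plain water (adjusted p = 0.111), 0.62 in salt-drinking knockouts (adjusted p = 0.083) and 0.56 in wild types on plain water (adjusted p = 0.117).

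Pola1, the catalytic subunit of polymerase alpha, passed the test in none of the 4 infusion comparisons. Its levels were 0.91, 1.32 and 0.05 in infused knockouts, against −0.06, 0.26 and 0.13 in controls. With salt they were 0.61, 0.60 and 0.57 in infused knockouts, against 0.29, 0.15 and 0.30 in uninfused ones. The plain-water groups overlapped and the salt groups did not. In wild types Pola1 was at 0.22, 0.12 and −0.23 after infusion, against −0.45, −0.33 and −0.70 in controls. Salt-drinking wild types had Pola1 at −0.0037, −0.43 and 0.75 after infusion, against −0.36, −0.40 and −0.34 without. There the plain-water groups were apart and the salt groups overlapped. The log2 changes of Pola1 were 0.65 ± 0.26 and 0.34 in knockouts on plain water and with salt (limma, adjusted p = 0.0702 and 0.361) and 0.53 and 0.47 in wild types (adjusted p = 0.148 and 0.177). In knockouts on plain water the 95% interval of its change, not adjusted for the number of genes, ran over 0.09 to 1.20. Pola2, the regulatory subunit, passed the test in 1 comparison, with a change of 1.01 ± 0.34 in salt-drinking knockouts.

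Of the 8 genes of the clamp, its loader, flap removal, ligation and single-strand binding, 7 and 8 were higher on infusion in knockouts on plain water and with salt, and 6 and 8 in wild types. Fen1, which cuts the flaps of Okazaki fragments, had the largest change of the group each time, at 2.01 ± 0.32 and 2.39 in knockouts and 1.98 and 2.04 in wild types. Of the clamp loader, Rfc3 changed between 1.11 and 1.40, Rfc4 changed between 1.29 and 1.65, and Rfc5 changed between 1.18 and 1.55 over the 4 comparisons. Rpa1 and Rpa2 coat single-stranded DNA, and Rpa1 had the smallest change of the group each time, between 0.18 and 0.49.

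Pcna, the sliding clamp, was at 5.0, 5.13 and 4.28 in infused knockouts, against 3.86, 3.64 and 3.65 in controls. With salt, Pcna was at 4.64, 4.64 and 4.59 in infused knockouts, against 3.69, 3.65 and 3.85 in uninfused ones. The groups did not overlap. Infused wild types had Pcna at 4.37, 4.06 and 3.76, against 3.09, 3.35 and 3.02 in controls. With salt, Pcna was at 4.22, 3.74 and 4.77 in infused wild types, against 3.15, 3.12 and 2.86 in uninfused ones. These groups were apart too. The rise of Pcna was 2.12-fold in knockouts on plain water (log2 1.09 ± 0.23, limma, adjusted p = 0.00189), 1.86-fold with salt (adjusted p = 0.00856), 1.88-fold in wild types on plain water (adjusted p = 0.00749) and 2.29-fold with salt (adjusted p = 0.000985).

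Lig1, the ligase of Okazaki fragments, had the smallest p of the group for infusion in wild types on plain water. In infused knockouts Lig1 was at 3.47, 3.39 and 2.44, against 1.63, 1.67 and 1.80 in controls. Salt-drinking knockouts had Lig1 at 3.12, 3.27 and 3.30 after infusion, against 1.53, 1.52 and 1.40 without. The uninfused arrays lay close together and below every infused one. Infused wild types had Lig1 at 3.09, 3.03 and 2.73, against 1.51, 1.46 and 1.70 in controls. Salt-drinking wild types had Lig1 at 2.99, 2.46 and 3.32 after infusion, against 1.55, 1.55 and 1.41 without. The picture was the same there. The log2 change of Lig1 was 1.40 ± 0.22 in knockouts on plain water (limma, adjusted p = 0.000256), 1.74 with salt (adjusted p = 3.35e-05), 1.39 in wild types on plain water (adjusted p = 0.000352) and 1.42 with salt (adjusted p = 0.000203).

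In the nucleotide group 5 of 6 genes were higher on infusion in each comparison except in wild types on plain water, where 4 were higher and 1, Ung, was lower. Tk1, thymidine kinase of the salvage route, had the largest change, and Rrm2, the S-phase subunit of ribonucleotide reductase, the next. Rrm2 changed by 3.28 ± 0.44 and 3.63 in knockouts on plain water and with salt, and by 3.03 and 2.87 in wild types. Rrm1, its larger partner, changed by 1.49 ± 0.33, 1.79, 1.84 and 1.84 in the same order. Dut, which removes dUTP, changed by 1.15 ± 0.26, 1.36, 1.19 and 1.41. Tyms was called higher except in wild types on plain water, where its change was 0.53 ± 0.24 (limma, adjusted p = 0.115).

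Tk1 (probe at mm9 chr11:117676845-117676904) was at 3.69, 3.91 and 1.55 in infused knockouts, against −0.70, −1.01 and −0.92 in controls. With salt, Tk1 was at 3.64, 3.02 and 3.17 in infused knockouts, against −0.81, −0.97 and −1.36 in uninfused ones. Even the low array 3 of the infused group was far above every control. Infused wild types had Tk1 at 3.44, 3.2 and 2.07, against −1.35, −1.51 and −0.94 in controls. With salt, Tk1 was at 3.03, 1.86 and 3.47 in infused wild types, against −1.39, −0.95 and −1.61 in uninfused ones. The gap was of the same kind in the wild type. The rise of Tk1 was 15.2-fold in knockouts on plain water (log2 3.93 ± 0.49, limma, adjusted p = 5.3e-05), 20.0-fold with salt (adjusted p = 1.48e-05), 18-fold in wild types on plain water (adjusted p = 6.24e-05) and 17.2-fold with salt (adjusted p = 3.47e-05).

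Ung, the glycosylase that takes uracil out of DNA, did not follow the others. Infused knockouts had Ung at 3.51, 3.5 and 3.9, against 3.9, 3.67 and 3.54 in controls. With salt, Ung was at 3.52, 3.46 and 3.46 in infused knockouts, against 3.85, 3.78 and 3.78 in uninfused ones. The plain-water groups overlapped, and with salt the infused arrays were the lower ones. In infused wild types Ung was at 3.70, 3.33 and 3.73, against 4.24, 4.08 and 4.26 in controls. Salt-drinking wild types had Ung at 3.15, 3.91 and 3.79 after infusion, against 4.04, 4.24 and 3.47 without. On plain water all infused wild-type arrays were lower than all controls, and with salt the groups overlapped. Ung fell by 0.61 ± 0.20 on the log2 scale in wild types on plain water (limma, adjusted p = 0.0293), a call lost with slide as a fixed or a random block. Its other changes were −0.30 in salt-drinking wild types (adjusted p = 0.246), −0.07 in knockouts on plain water (adjusted p = 0.845) and −0.32 in salt-drinking knockouts (adjusted p = 0.248).

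The 3 chromatin genes were higher in each of the 4 infusion comparisons. Chaf1a and Chaf1b are the larger and the middle subunit of CAF-1, which places histones on new DNA, and Uhrf1 reads hemimethylated DNA and brings in the maintenance methyltransferase. Chaf1a changed by 1.82 ± 0.29 and 2.51 in knockouts on plain water and with salt, and by 1.80 and 2.28 in wild types. Uhrf1 changed by 3.30 ± 0.36, 4.16, 2.74 and 2.91 in the same order. A second, dimmer probe of Uhrf1, above background on 9 of 24 arrays, changed by 1.70, 2.41, 2.37 and 2.23.

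Chaf1b had the smallest p of the chromatin genes for infusion in wild types on plain water. Infused knockouts had Chaf1b at 3.30, 3.43 and 1.64, against 0.05, −0.07 and 0.03 in controls. With salt, Chaf1b was at 2.81, 2.93 and 2.87 in infused knockouts, against −0.31, −0.50 and −0.50 in uninfused ones. The uninfused arrays were tight and far below. In the wild type Chaf1b stood at 2.77, 2.55 and 2.26 after infusion, against −0.21, −0.21 and 0.20 in controls. With salt, Chaf1b was at 2.65, 1.85 and 3.03 in infused wild types, against 0.19, 0.04 and 0.06 in uninfused ones. No groups overlapped. The rise was 6.90-fold in knockouts on plain water (limma, adjusted p = 4.29e-05), 9.88-fold with salt (adjusted p = 8e-06), 6.08-fold in wild types on plain water (adjusted p = 9.11e-05) and 5.33-fold with salt (adjusted p = 9.98e-05).

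Of the kinases, cyclins and E2F, all 4 tested genes were higher on infusion except Cdc7 in salt-drinking knockouts. E2f1, the founding E2F activator, was at 1.06, 1.15 and −0.09 in infused knockouts, against −0.77, −0.70 and −0.73 in controls. With salt, E2f1 was at 0.69, 0.97 and 0.95 in infused knockouts, against −0.80, −0.57 and −0.81 in uninfused ones. The groups were apart, array 3 of the infused knockouts again lowest. In the wild type E2f1 stood at 1.04, 1.00 and 0.51 after infusion, against −1.21, −0.89 and −0.95 in controls. With salt, E2f1 was at 1.01, 0.27 and 1.29 in infused wild types, against −1.09, −0.90 and −1.17 in uninfused ones. These did not overlap either. The log2 change of E2f1 was 1.44 ± 0.27 in knockouts on plain water (limma, adjusted p = 0.000849), 1.6 with salt (adjusted p = 0.000472), 1.86 in wild types on plain water (adjusted p = 0.00018) and 1.91 with salt (adjusted p = 0.000105).

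Ccne1 encodes cyclin E1, which drives the step from G1 into S phase. Infused knockouts had Ccne1 at 2.07, 1.93 and 0.02, against −2.64, −2.71 and −2.80 in controls. With salt, Ccne1 was at 1.46, 1.21 and 1.54 in infused knockouts, against −2.95, −3.24 and −2.59 in uninfused ones. In knockouts the infused arrays were far above. Infused wild types had Ccne1 at 1.39, 1.25 and 0.43, against −2.28, −2.05 and −1.40 in controls. With salt, Ccne1 was at 1.14, 0.16 and 1.81 in infused wild types, against −1.62, −1.56 and −1.85 in uninfused ones. There too no groups overlapped. The rise was 16.7-fold in knockouts on plain water (log2 4.06 ± 0.44, limma, adjusted p = 3.09e-05), 20.1-fold with salt (adjusted p = 8.02e-06), 7.63-fold in wild types on plain water (adjusted p = 0.000248) and 6.57-fold with salt (adjusted p = 0.000323). A second probe of Ccne1, above background on 18 of 24 arrays, rose in knockouts, by 2.93 ± 0.36 on plain water and 3.37 with salt. In wild types that probe changed by 0.39 on plain water (limma, p adjusted over probes 0.470) and −0.05 with salt (0.933), so the probes of Ccne1 disagree in the wild type.

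Cyclin E2 was not measured above background. Ccne2 lay at −6.74, −6.96 and −6.51 in infused knockouts, against −6.63, −6.85 and −7.14 in controls, and its wild-type levels were −7.24, −5.75 and −6.87 after infusion, against −6.95, −7.00 and −6.45 in controls. With salt, Ccne2 was at −7.70, −7.47 and −7.35 in infused knockouts, against −6.73, −6.77 and −6.83 in uninfused ones, and at −6.54, −6.79 and −7.26 in infused wild types, against −7.09, −7.01 and −6.79 in uninfused ones. All 24 values are at background, so their order carries no meaning and no fold is given.

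Dbf4, the activating partner of Cdc7, was above background on all infused arrays. Of uninfused arrays, 1 of 3 was above background in salt-drinking knockouts, 1 of 3 in control knockouts and 2 of 3 in salt-drinking wild types. The fitted log2 changes of 2.73 ± 0.60 and 2.95 in knockouts on plain water and with salt, and of 2.77 in salt-drinking wild types, therefore rest partly on values at background. In wild types on plain water 0 of 3 control arrays were above background, so the rise there was at least 7.49-fold, set against the higher of each control array's own signal and its lowest signal well above background (limma, adjusted p = 0.000635).

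**Figure D3:**
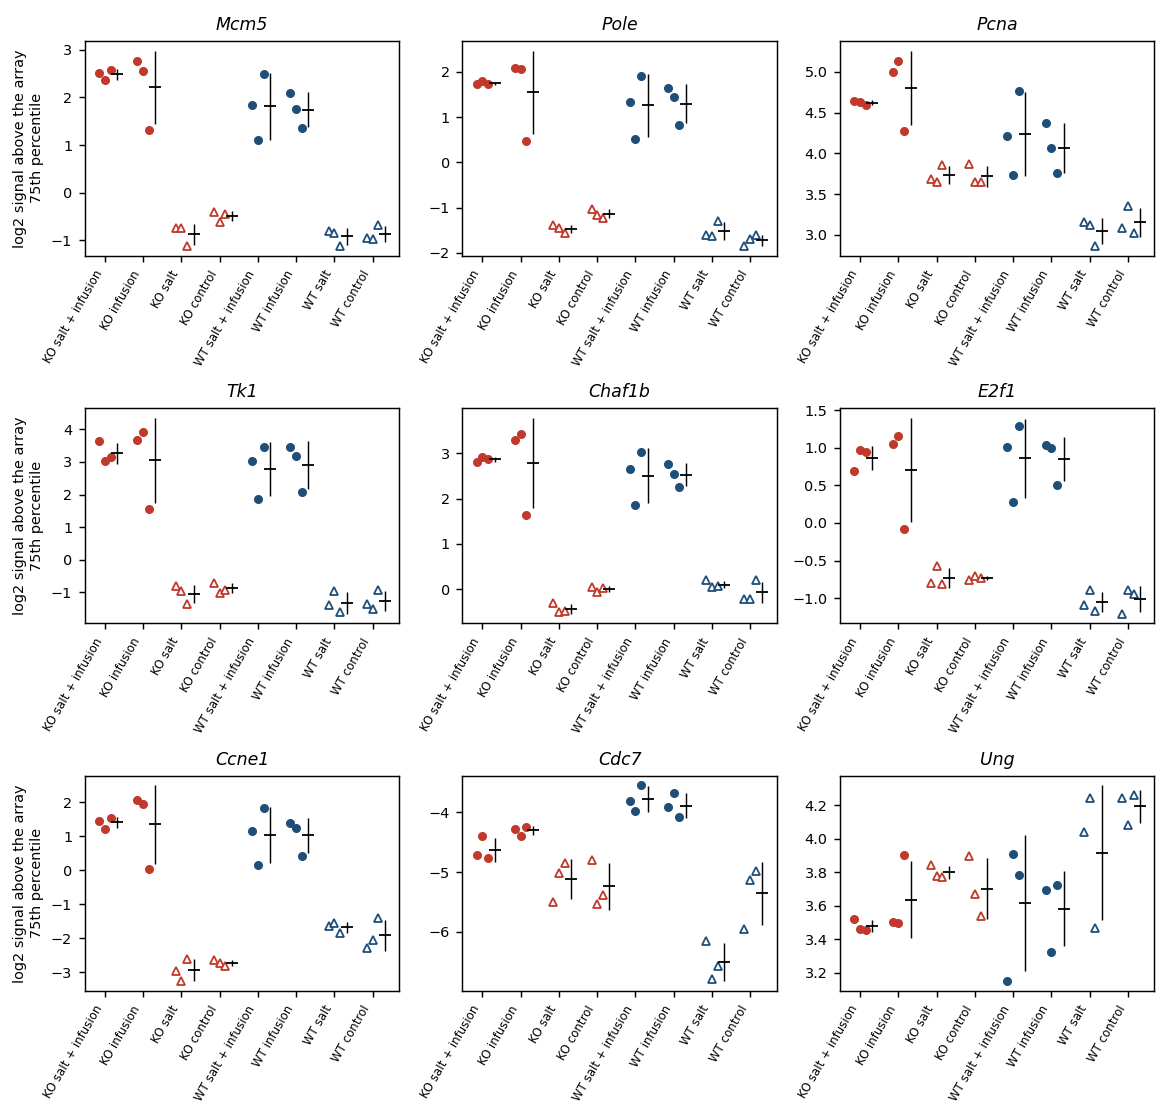
Levels of 9 of the genes on every array (vertical axis, log2 signal relative to the array's 75th percentile), with knockout in red left of wild type in blue. Filled circles are infused and open triangles uninfused arrays, and bars are group means with the SD of 3 arrays. Within a genotype, filled and open markers do not overlap for Mcm5, Pole, Pcna, Tk1, Chaf1b, E2f1 and Ccne1. Those of Ung overlap in knockouts on plain water and in salt-drinking wild types.

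Genes of the same pathway outside the 38 are given as counts, without a test of the lists. The shares over all genes to set beside these counts are those given above for the same infusion comparisons. Of 39 other replication genes, 21 were higher and 1 lower on infusion in knockouts on plain water (median −0.04 over all genes, 0.62 over the list), 20 and 3 in salt-drinking knockouts, 18 and 2 in wild types on plain water and 20 and 1 in salt-drinking wild types. Mcm3, the ring subunit not among the 38, rose by 1.52 ± 0.24 in knockouts and 1.37 in wild types on plain water. Chtf18, part of an alternative clamp loader, rose by 1.88 and 2.31. Its partner Dscc1 rose by 3.59 in knockouts and at least 7.75-fold in wild types, and Ticrr, which brings helicase activators to origins, at least 5.58-fold in knockouts and by 3.82 in wild types, where a bound is given because 0 control arrays were above background. Orc4, a subunit of the origin recognition complex, was lower in all 4 infusion comparisons, with −0.30 ± 0.11 in knockouts and −0.31 in wild types on plain water. Pold2 was lower in wild types on plain water (−0.39), and Orc5 and Top1 were lower in salt-drinking knockouts (−0.49 and −0.39).

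For regulators of entry into S phase values are log2 changes. Of 27 tested cyclins of G1, CDKs, E2Fs and pocket proteins, 16 were higher and 4 lower in knockouts (14.4% and 16.2% of all genes) and 14 and 4 in wild types (12.2% and 13.7%) on plain water, so the lower ones are near the share over all genes. Ccna2 (cyclin A2) changed by 4.27 in knockouts and 4.27 in wild types, the repressor E2f7 by 3.27 and 3.42, Foxm1 by 3.12 and 3.22 and Mybl2 by 2.93 and 1.89, the last pair being factors of the later cycle. The lower genes included Rbl2, the pocket protein p130 of resting cells, at −1.29 and −0.69, and Ccnd2, a cyclin of G1, at −0.69 and −0.79. Tfdp2, a partner of E2Fs, and Lin52, a subunit of the DREAM complex, were lower too, at −1.09 and −0.50, and −0.49 and −0.64. Of the 7 CDK inhibitors, 4 were higher and 2 lower in both genotypes on plain water. The shares over all genes were 14.4% and 16.2% in knockouts and 12.2% and 13.7% in wild types. The 2 lower ones are too few to set apart from the share of lower genes. Cdkn1b (p27) was lower, at −0.71 in knockouts and −0.54 in wild types, and so was Cdkn1c (p57), at −1.70 and −0.79, while Cdkn2a, Cdkn2c and Cdkn2d rose by 0.99, 0.95 and 0.96 in knockouts and 1.31, 1.44 and 0.86 in wild types.

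Of 22 other enzymes of nucleotide supply, 7 were higher and 4 lower on infusion in knockouts (14.4% and 16.2% of all genes) and 6 and 2 in wild types (12.2% and 13.7%) on plain water, so the lower ones are near or under the share over all genes. Dck (deoxycytidine kinase) and Mthfd2 (a mitochondrial enzyme of one-carbon metabolism) rose by 1.64 and 1.83 in knockouts and 1.78 and 1.88 in wild types, and the purine enzyme Atic by 0.79 and 0.80. Tk2, the mitochondrial thymidine kinase, was lower in all 4 infusion comparisons, with −0.72 ± 0.13 and −0.76 on plain water, opposite in sign to Tk1. Rrm2b, the ribonucleotide reductase subunit used outside S phase, was lower in knockouts on plain water (−1.0) and in salt-drinking wild types (−0.84), and was not called in the other comparisons (−0.47 and −0.62). Ctps2 was lower in knockouts (−0.37 on plain water), and Dhodh was lower in both genotypes on plain water (−0.40 and −0.40).

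Of 29 tested genes of replication-coupled chromatin and repair, 17 were higher and 2 lower in knockouts and 16 and 2 in wild types on plain water. The histone chaperone Asf1b rose by 3.59 ± 0.42 in knockouts and 3.63 in wild types, whereas its paralogue Asf1a was lower, at −0.77 and −1.0. Rad51ap1 and Exo1, repair factors, rose by 3.81 and 3.49 in knockouts, and in wild types Rad51ap1 rose by 4.04 and Exo1 at least 15.4-fold. The helicase Brip1, with 0 control arrays above background, rose at least 2.26-fold in knockouts and at least 3.14-fold in wild types. Of 44 replication-dependent histone genes, 18 were higher and 2 lower in knockouts and 19 and 2 in wild types, among them H2ac4 at 3.29 and 3.62, H2ac11 at 2.51 and 2.88, H2ac22 at 2.52 and 2.75, and H2ac15 at 1.77 and 2.10. The lower histone genes on plain water were H2bc6, at −1.19 and −0.96, and H2bc21, at −1.11 and −0.78, and H4c8 was lower in salt-drinking knockouts (−0.66). Histone genes are near-identical copies, and a probe may read several of them.

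Of 29 tested genes of mitosis, the phase after S and G2, 27 were higher and 1 lower in knockouts on plain water, 27 and 1 in salt-drinking knockouts, 26 and 1 in wild types on plain water and 28 and 1 in salt-drinking wild types, with medians of 3.86, 4.72, 3.88 and 3.98. Cdk1, the kinase of mitosis, rose by 4.77 ± 0.64 in knockouts and at least 31.6-fold in wild types on plain water. The spindle checkpoint kinase Bub1 rose at least 15.6-fold and at least 13.9-fold, Prc1 of the central spindle by 4.32 and 4.28 and Cdca8 of the chromosomal passenger complex by 3.86 and 3.94. Pttg1 (securin) was the lower one, at −0.73 and −0.88. The arrays with low replication genes were also the lowest of their groups for mitosis, with means of −0.34 on array 3 of the infused knockouts, 0.30 on array 3 of the infused wild types and 0.47 on array 2 of the salt-drinking infused wild types.

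**Figure D4:**
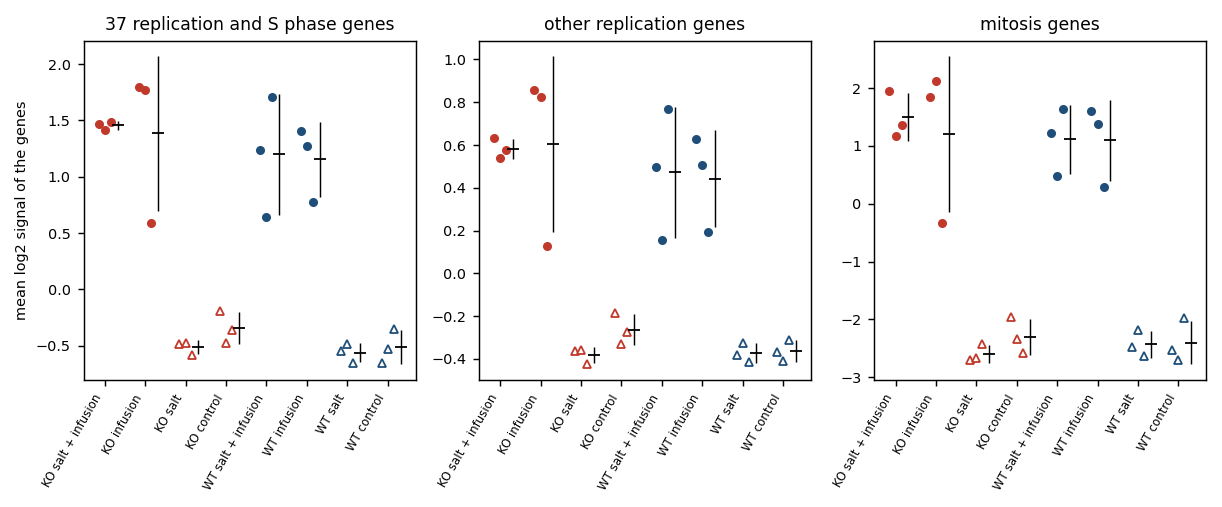
Mean level over the 37 replication genes, over 39 other replication genes and over 29 mitosis genes on each array, with knockout groups left of wild-type groups. Each point is 1 array. The infused arrays lie above the uninfused ones in all 3 lists, and the low arrays of the infused groups are low in each list.

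Markers of other cells moved with the infusion as well. The shares over all genes to set beside their counts are again those given above for the same infusion comparisons. Of 17 macrophage and monocyte markers, 12 were higher and 0 lower in knockouts on plain water, 11 and 0 in salt-drinking knockouts, 15 and 0 in wild types on plain water and 12 and 0 in salt-drinking wild types. Their summed linear signal, relative to each array's 75th percentile, was 229 to 368 in infused knockouts, against 165 to 192 in controls, and 286 to 375 in infused wild types, against 193 to 258 in controls. Of 12 smooth muscle markers, 6 were lower in knockouts and 5 in wild types on plain water and 0 higher, with sums of 1500.4 to 2357 in infused knockouts, against 2138 to 2488 in controls, and 2200 to 2662 in infused wild types, against 2712 to 3373 in controls. Of 12 fibroblast markers, 6 were lower in knockouts and 7 in wild types and 0 higher, with sums of 608 to 827 in infused knockouts, against 927 to 1098 in controls, and 435 to 605 in infused wild types, against 684 to 847 in controls. None of these markers was at background on all arrays. Of thymocyte markers, 0 of 12 tested were higher in any of the 4 infusion comparisons (12.2% to 16.3% of all genes). In knockouts on plain water 2 of the 12 were lower (16.2% of all genes), and in salt-drinking wild types 3 (16.6%). At such shares few of 12 markers would be called in any case, so these counts tell little. The sums of the 14 on the array were 3.44 to 4.2 in infused knockouts, against 3.30 to 11.5 in controls, and 5.81 to 7.04 in infused wild types, against 3.99 to 14.0 in controls, and Themis was at background on every array. The highest control sums were on array 1 of the knockouts (11.5) and array 3 of the wild types (14.0). These 2 control arrays were also the highest of their groups for 27 and 24 of the 37 replication genes. Their macrophage and smooth muscle sums were the highest of their groups too. The 3 low infused arrays had the lowest macrophage sum of their groups (229, 286 and 284) and the highest smooth muscle sum (2357, 2662 and 2918). The part of these cells in the replication genes was not tested.

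Slides bear on the infusion comparison of wild types on plain water, whose infused arrays all lie on slide 4 and controls on slide 3. With slide as a fixed block, bridged by array 3 of the salt-drinking infused wild types, 6 genes were higher there and 0 lower, with a median of 0.80, and with slide as a random block 15 were higher. The 6 were Chaf1b, Mcm10, Mcm5, Pole, Tk1 and Uhrf1. Some comparisons can be made on 1 slide. Within slide 1, which leaves out the low array 3 of the infused knockouts, 35 genes were higher in infused knockouts on plain water, with a median of 1.95, and within slide 3, 31 were higher in salt-drinking infused wild types, with a median of 1.52. In salt-drinking knockouts, whose groups lie on slides 2 and 1, the fixed block gave 35 higher and a median of 2.84, and the slides are bridged there by array 3 of the infused knockouts, the low array of that group.

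For salt alone 0 of the 37 genes were called by the test. The estimate of the spread in that fit is shared by all groups, and the low infused arrays enter it. Small changes between tight uninfused groups can therefore be missed, at an unadjusted p as well. Fits of the compared groups alone also called 0 in knockouts and 0 in wild types. The lack of calls does not show that salt left these genes unchanged. In salt-drinking knockouts 0 were called against controls (0% of all genes in either direction by limma, and 0 of the 37 at an unadjusted p under 0.05), and the median change was −0.18, against −0.01 over all genes. In salt-drinking wild types 0 were called (0% of all genes, and 1 of the 37 at an unadjusted p under 0.05), with a median of −0.04, against −0.02. The changes ran from −0.56 to 0.16 in knockouts. In wild types the fitted values at either end, −1.15 for Cdc7 and 0.67 for Dbf4, rest on controls with 0 of 3 arrays above background and are not measured changes. In knockouts the 3 salt arrays lay below all 3 controls for 12 genes (7.7% of all genes) and above them for 1, Mcm6 (5.7%). In wild types they lay below for 3 (7.87%), which were Gins2, Rpa2 and Cdc7, the last at background on all 6 arrays so that its order carries no meaning, and above for 1, again Mcm6 (4.02%). Uhrf1 was one of those 12 in knockouts, at −1.99, −2.02 and −2.00 with salt, against −1.02, −1.68 and −1.64 in controls. Chaf1b was another, at −0.31, −0.50 and −0.50 with salt, against 0.05, −0.07 and 0.03 in controls. The SDs of these Chaf1b groups were 0.11 and 0.07.

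Salt under infusion also gave no calls. In knockouts 0 of 37 were called (0% of all genes by limma, and 0 of the 37 at an unadjusted p under 0.05), with a median of 0.08 and changes from −0.32 to 0.34. All 3 salt arrays lay above the others for 0 genes (3.77% of all genes) and below them for 1, Cdc7, with 3 of the 6 arrays above background (3.19%). In wild types 0 were called (0% of all genes, and 0 at an unadjusted p under 0.05), with a median of 0.03 and changes from −0.15 to 0.28, and the arrays were apart for 0 genes in either direction (2.61% and 5.45% of all genes). Mcm5 changed by 0.27 with a 95% interval of −0.40 to 0.94 in knockouts and by 0.08 with −0.59 to 0.74 in wild types. Without the 3 low arrays 1 gene, Mcm7, was called lower in knockouts, at −0.46 (limma, adjusted p = 0.0495), and the median there was −0.32. With slide as a fixed block 5 genes were called higher in knockouts, namely Chaf1b, Lig1, Mcm7, Pole and Rfc5, with Mcm7 at 0.95 (adjusted p = 0.0357). That contrast rests on slide 2, with 3 salt-drinking infused knockout arrays against 1 infused array on plain water, the low array 3, and the arrays of slide 2 alone gave 0 calls. Whether salt changed the effect of infusion was tested as a difference of differences, and 0 genes were called in knockouts (0% of all genes, and 0 at an unadjusted p under 0.05) and 0 in wild types (0% of all genes, and 1 at an unadjusted p under 0.05).

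In the fit over all 24 arrays few of the replication genes were called between knockout and wild type. Fits of the compared groups alone called more in controls and with salt alone, as the closing section on processing gives. In vehicle controls 1 gene was higher and 1 lower in knockouts, against 14.3% and 22.8% of all genes by limma. With salt alone 3 were higher and 2 lower (15.7% and 23.5% of all genes), under infusion 4 and 0 (18.9% and 27.2%), and under salt and infusion 0 and 1 (10.6% and 17.9%). Knockout arrays all lay above wild-type arrays for 12 genes and below for 3 in controls (27.8% and 31.4% of all genes), for 11, Cdc7 at background among them, and 7 with salt (31% and 34.5%), for 0 and 1 under infusion (16.2% and 25.3%) and for 3 and 1 under salt and infusion (19.9% and 25.5%). The medians of the 37 were 0.22, −0.0049, 0.27 and 0.31 in that order, against −0.02, −0.03, −0.05 and −0.02 over all genes. Quantile normalisation moved the median of the 37 in controls to 0.41 and that of all genes to 0.07. The counts over all genes in controls were 3366 higher and 5355 lower, and 4312 and 4173 after quantile normalisation.

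The called genes were these. Mcm4 was at 2.90, 2.76 and 2.74 in control knockouts, against 1.97, 2.15 and 1.85 in control wild types, and at 3.92, 3.88 and 2.91 in infused knockouts, against 3.13, 3.01 and 2.63 in infused wild types. The controls were apart and the infused arrays overlapped. Its difference was 0.81 ± 0.23 in controls (limma, adjusted p = 0.0114) and 0.65 under infusion (adjusted p = 0.0302). Mcm4 with salt stood at 2.79, 2.52 and 2.48 in knockouts, against 2.11, 2.15 and 2.04 in wild types, and with salt and infusion at 3.56, 3.60 and 3.59, against 2.98, 2.51 and 3.49 in wild types. Rpa2 was at −0.33, −0.50 and −0.46 in control knockouts, against 0.07, 0.07 and 0.21 in control wild types, with no overlap and a difference of −0.55 (adjusted p = 0.0443). Rpa2 in infused knockouts stood at 0.42, 0.51 and −0.37, against 0.64, 0.27 and 1.01 in infused wild types. Its salt levels were −0.66, −0.68 and −0.73 in knockouts, against −0.13, −0.30 and −0.18 in wild types, and with infusion added 0.01, 0.31 and 0.31, against 0.41, 0.21 and 0.83 in wild types. Knockout arrays of Rpa2 were the lower ones without infusion and overlapped wild-type arrays under infusion, with and without salt.

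Pcna was higher in knockouts with salt alone, by 0.69 ± 0.23 (limma, adjusted p = 0.0228), and under infusion, by 0.74 (adjusted p = 0.0129). Pole2 was at −1.87, −1.82 and −1.89 in salt-drinking knockouts, against −2.60, −2.43 and −2.82 in salt-drinking wild types, and at 0.33, 0.39 and −0.79 in infused knockouts, against −0.47, −0.87 and −1.31 in infused wild types. The salt arrays were apart and the infused ones overlapped. Its differences were 0.76 ± 0.29 (adjusted p = 0.0452) and 0.86 (adjusted p = 0.0214). In control knockouts Pole2 stood at −1.73, −1.87 and −1.66, against −2.53, −2.39 and −2.42 in control wild types, and with salt and infusion at −0.05, −0.41 and −0.17 in knockouts, against −0.69, −1.28 and −0.02 in wild types. Pola1 differed by 0.72 ± 0.26 under infusion (adjusted p = 0.0314), with overlapping arrays.

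With salt alone Uhrf1 and Ccne1 were lower in knockouts. Uhrf1 was at −1.99, −2.02 and −2.00 in salt-drinking knockouts, against −0.89, −0.93 and −1.08 in salt-drinking wild types, a difference of −1.04 ± 0.36 (limma, adjusted p = 0.0281). In controls Uhrf1 stood at −1.02, −1.68 and −1.64 in knockouts, against −1.11, −1.29 and 0.04 in wild types, where array 3 was high. Infused knockouts had Uhrf1 at 2.40, 2.29 and 0.89, against 2.06, 2.16 and 1.65 in infused wild types, and with salt added at 2.13, 2.15 and 2.20, against 2.12, 1.36 and 2.36. Uninfused salt arrays were apart and infused arrays overlapped. Ccne1 differed by −1.25 ± 0.44 with salt alone (adjusted p = 0.0315).

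Counts of genotype differences moved with single arrays. In controls each array left out in turn gave 1 gene, and with salt alone 1 or 2. Only arrays of the compared groups were left out there. The 3 low infused arrays enter the shared estimate of the spread, and leaving them out together raised both counts, as the closing section gives. Under infusion the count was 23 without array 3 of the infused knockouts, 0 without array 1 and 1 without array 2 of that group, 0 without array 3 of the infused wild types, and 17 without the 3 low arrays together. Under salt and infusion it was 7 without array 3 of the wild types and 0 without array 1 or array 3 of the knockouts. Of 12 fibroblast markers, 5 were higher in knockouts in controls and 6 under infusion (14.3% and 18.9% of all genes), and of 12 smooth muscle markers 2 and 5 were lower (22.8% and 27.2% of all genes). Of 9 mesothelial markers, 0 were higher in controls, 8 under infusion and 0 under salt and infusion, with 0 lower each time. Of 5 B cell markers, 2 were lower in controls and 3 under infusion, with 0 higher. The part of all these cells in the replication genes was not tested.

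Whether infusion acted differently in the genotypes was tested as the difference of the infusion changes. On plain water 0 of 37 genes were called (0% of all genes by limma, and 0 of the 37 at an unadjusted p under 0.05), with a median difference of 0.09. With salt 0 were called higher and 1, Cdc7, lower (0.0638% and 0.00851% of all genes), with a median difference of 0.22. With slide as a fixed block 25 were called higher and 1 lower with salt and the median was 1.63, with a random block 0 were called and the median was 0.98, and the bridge between the knockout slides is again the low array 3. Ccne1 had the largest positive difference with salt, 1.62 ± 0.62 (limma, adjusted p = 0.451), and on plain water it was 1.13 (adjusted p = 0.796). These values are from its brighter probe. The second probe of Ccne1 changed by 3.37 with salt and 2.93 on plain water in knockouts, against −0.05 and 0.39 in wild types. Its difference between the genotypes was not tested, and the result for Ccne1 depends on the probe.

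Cdc7, the kinase that fires origins, was a dim probe, well above background on 9 of 24 arrays. It was at −4.72, −4.40 and −4.76 in salt-drinking infused knockouts, against −5.50, −5.02 and −4.85 in salt-drinking uninfused ones. In salt-drinking wild types Cdc7 was at −3.80, −3.97 and −3.55 after infusion, against −6.15, −6.79 and −6.57 without. The salt-only groups had 0 of 3 arrays above background each, and the infused groups 2 of 3 in knockouts and 3 of 3 in wild types. Salt-drinking infused knockouts lay just above their uninfused group, and wild types well above theirs. On plain water Cdc7 was at −4.28, −4.39 and −4.24 in infused knockouts, against −4.80, −5.54 and −5.38 in controls, and at −3.92, −3.67 and −4.08 in infused wild types, against −5.95, −5.14 and −4.98 in controls. Of these, 1 of 3 infused knockout arrays and 3 of 3 infused wild-type arrays were above background, and 0 of 3 controls in either genotype. In wild types the infusion changes are therefore bounds, at least 1.5-fold on plain water and at least 1.80-fold with salt. The fitted changes there passed the test (limma, adjusted p = 0.000556 and 7.14e-06). In knockouts not all infused arrays were above background either, so no bound is given. The fitted change in knockouts passed the test on plain water (limma, adjusted p = 0.00778) and did not with salt (adjusted p = 0.145). The fitted difference between the genotypes with salt was −2.23 ± 0.35 (adjusted p = 0.0182) and rests on values at background. With salt and infusion Cdc7 was lower in knockouts than in wild types, at −0.85 ± 0.25 (adjusted p = 0.015). With salt alone the fit called it higher in knockouts, but both groups were at background and no fold is given.

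The promoter windows set these genes beside their sequences. Of the 38 genes 33 had a window, 39 windows in all, and the 5 without one were Mcm4, Gins1, Gins2, Pole and Ccne2. At least 1 of the 4 E2F words stood in the windows of 20 of the 33 genes, 60.6%, against 2936 of all 27025 genes with a window, 10.9%. The word CCAAT, bound by NF-Y, stood in 15 of the 33, 45.5%, against 41.1% of all genes. The word TTTGAA, the CHR element of late cell cycle genes, stood in 4, 12.1%, against 20.2%. Each word was searched on both strands, a gene counts where any of its windows holds the word, and a match is a description and not a binding site.

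Genes with and without an E2F word in their windows rose on infusion. Of 25 genes with a window that were higher in all 4 infusion comparisons, 16 held an E2F word. The 9 without one in their windows were Mcm2, Mcm10, Pcna, Tk1, Rfc5, Dut, Dbf4, Ccne1 and E2f1. Of the 8 genes that were higher in fewer comparisons, 4 held one, Pola1 among them with the 4 words printed above. A window covers only the annotated start it is set at, and other starts of a gene were not searched. The window of E2f1 appears to lie within coding sequence, so its lack of a word says nothing about the promoter upstream. The words of Mcm6 stood at −109 to −100, −46 to −37 and 25 to 31 bases from the start, and those of Mcm5 at −164 to −158 and −152 to −143.

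**Figure D5:**
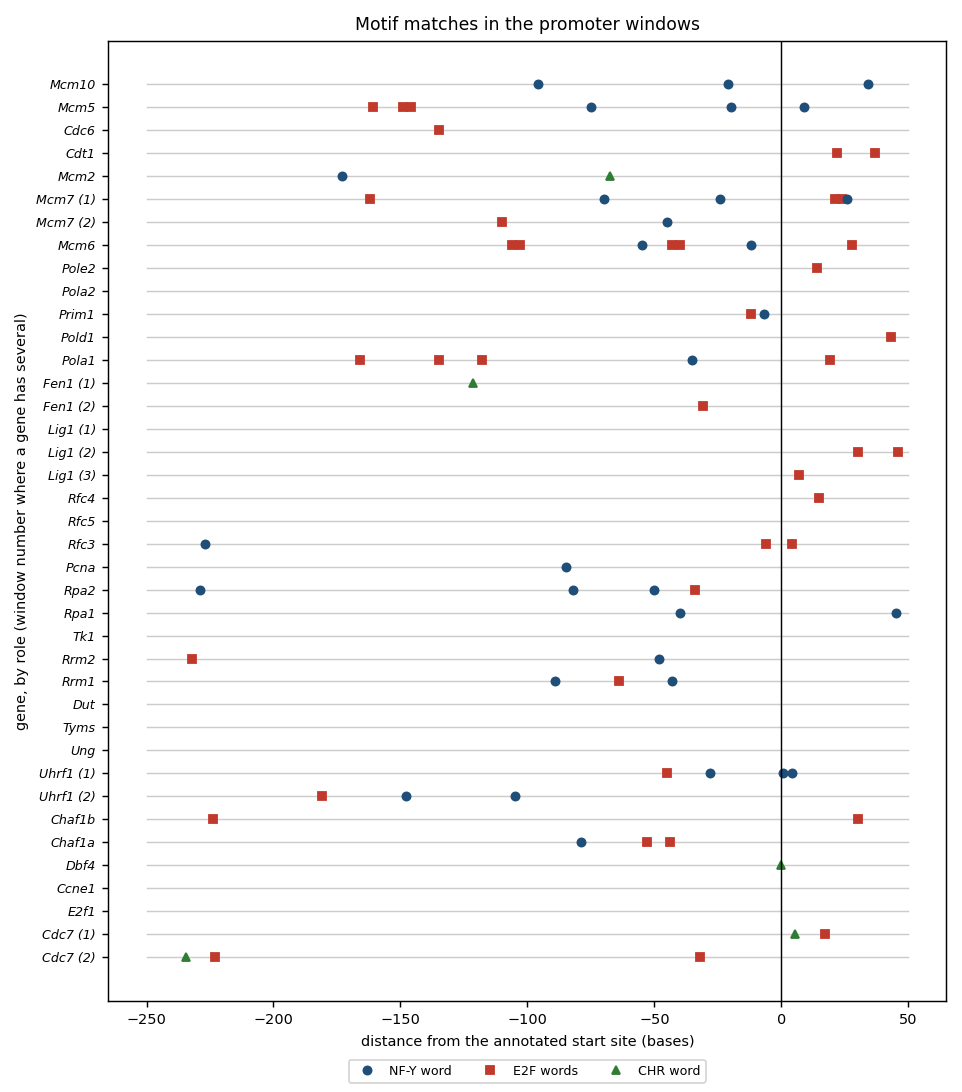
Positions of the E2F words, the NF-Y word and the CHR word in the 39 promoter windows (horizontal axis, bases from the annotated start), with a line for each window by role. Windows run from 250 bases before to 50 bases after the start. The E2F words of Mcm5 lie far upstream, those of Mcm6 lie on both sides of the start, and the lines of Tk1, Ccne1 and E2f1 are empty. The window of E2f1 appears to lie within coding sequence.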

How the data were processed

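The arrays carry a single dye, Cy3, per the labels' protocols. The value used is the scanner's processed signal, an intensity that the software had corrected for background and for spatial trends on each array by itself, per the file headers, with no step across arrays. Agilent Feature Extraction is named as version 10.7.1.1 in the headers and as 9.5.1.1 in the submitters' processing notes. Spot flags were taken as deposited. The authors' processed values, an intensity on a linear scale as deposited, served as an alternative. Their columns all had the same sorted values (median 30.982, log2 differences of at most 0.00121), so they had been quantile-normalised.

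Outlier spots (2910 over 24 arrays) were dropped, spots of a probe averaged, and log2 signals set against each array's 75th percentile. To be kept, a probe had to exceed background clearly on all 3 arrays of some group, with values on 2 or more arrays of every group, and the brightest kept probe stood for a gene. Of the 38 genes 10 had several. One limma model (lmFit and eBayes, limma 3.58.1, R 4.3.3) over 24 arrays gave 18 comparisons, adjusted by Benjamini-Hochberg over 23506 genes with a threshold of 0.05. The fit was tested on simulated data. Tables were handled by data.table (its version 1.17.8), and Python 3.11.15 with numpy 2.4.6 and matplotlib 3.10.9 made the plots. The members and lists were chosen with earlier results of these data known. Alternatives were quantile normalisation, normexp, the authors' values, other filters, probe means, names through accessions, a trend in the prior, slide and replicate blocks, fits of the compared groups alone and arrays left out.

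Values on every array are printed, in each role, for the brightest gene and the gene of smallest p for infusion in wild types on plain water, for genes called in a salt, genotype or difference comparison, and for Pcna, E2f1, Ccne1 and Ccne2. From other lists the rule named up to 4 genes of smallest p and any called gene that moved against the majority. Of the genes so named, 1 is not reported here. Wild-type salt arrays carry other replicate numbers in their titles than in their source names, and the source names' were used. Same-numbered arrays did not deviate together: over 42 pairs the correlation ran from −0.45 to 0.45, and in 0 of 14 comparisons were all pairs over 0.1. Probe coordinates are on mm9, per the scanner output, and promoters on GRCm38.p6. The array's gene names were used, and all 38 had the same symbol through their accession in RefSeq.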

Additional observations from a re-analysis of the deposited data

Results flagged for a closer look

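Cdc7 stood out because its response to infusion differed between the genotypes when the mice drank salt. The test of that difference, knockout minus wild type, gave −2.23 ± 0.35 on the log2 scale (limma, adjusted p = 0.0182), with infusion changes of 0.50 in salt-drinking knockouts and 2.73 in salt-drinking wild types. Both salt-only groups had 0 of 3 arrays well above background, so the size of the difference is not measured. The call was lost with normexp background correction, with slide as a random block and when some single arrays were left out. On plain water the difference for Cdc7 was −0.53 (adjusted p = 0.843).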

How the results depend on the processing

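The counts of members called on infusion kept within 1.5 times of the reported ones under every alternative but these: in wild types on plain water 6 with slide as a fixed block and 15 as a random block, and in knockouts on plain water 21 with the fit restricted to the groups compared. With single arrays left out they ran from 28 to 32 in wild types on plain water, 28 to 35 in knockouts on plain water, 29 to 36 in salt-drinking wild types, 31 to 33 in salt-drinking knockouts, and for salt with infusion against vehicle 30 to 35 in wild types and 27 to 32 in knockouts. For salt under infusion in knockouts, where 0 were called, the fixed block gave 5, and leaving out the 3 low arrays together, chosen after seeing the data, gave 1. The difference made by salt in knockouts gave 4 with the fixed block. The difference between the genotypes with salt, 1 member, gave 0 with normexp, 0 when a probe had to be above background on all 24 arrays (which leaves Cdc7 out), 26 with the fixed block (25 of them higher), 0 with the random block and 0 to 1 with single arrays left out. The other salt comparisons gave 0 with every single array left out.

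For genotype in controls, 2 members, the count was 5 with quantile normalisation and with the authors' processed values, 1 with no filter, 4 with a trend in the prior, 0 with the random block, 13 with only the compared groups, 9 without replicate 3 of both infused groups, 13 without the 3 low arrays and 1 to 1 with single arrays left out. For genotype with salt, 5 members, it was 3 with quantile normalisation and with the authors' values, 2 with normexp, 1 with the random block, 15 with only the compared groups, 9 without both replicates 3, 14 without the 3 low arrays and 1 to 2 with single arrays left out. For genotype under infusion, 4 members, it was 7 with normexp, 1 with the random block, 0 with only the compared groups, 8 without both replicates 3, 17 without the 3 low arrays and 0 to 23 with single arrays left out. For genotype under salt and infusion, 1 member, it was 0 with quantile normalisation, the authors' values, the probes above background on all arrays and the random block, 5 with normexp and without both replicates 3, 2 without the 3 low arrays and 0 to 7 with single arrays left out. The cause was not tested.

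With the replicate number as a block the counts were 31 in wild types and 31 in knockouts on plain water, 33 and 33 with salt, 1 for genotype in controls and 4 for genotype with salt, and no other count of calls changed by over 1.5 times; the numbers do not pair the arrays.

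Signs turned for few genes. In wild types on plain water the fixed slide block gave −0.31 for Tyms, −0.44 for Pola1, −0.10 for Pola2, −0.23 for Prim1 and −0.091 for Rpa1, and the random block −0.0069 for Pola1. Ung in knockouts on plain water gave 0.034 without array 1 of the controls and 0.0029 without array 2 of the infused group (−0.20 without array 3). With normexp Cdc7 gave −0.17 for infusion in salt-drinking knockouts and −0.10 for genotype with salt alone.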
